A study of Mus musculus with 4 samples.

Results

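The 10 genes described here encode receptors through which the liver receives growth and insulin signals. They are the epidermal growth factor (EGF) receptor Egfr and its relatives Erbb2 and Erbb3, the hepatocyte growth factor receptor Met, the insulin receptor Insr, the fibroblast growth factor (FGF) receptors Fgfr1, Fgfr2 and Fgfr4, the FGF co-receptor Klb, and the platelet-derived growth factor (PDGF) receptor Pdgfra. The members are all probe sets of the value table that name one of these symbols alone, 31 of 45037 probe sets. A probe set is a group of short probes on the array that together read out 1 transcript region. Of the 31, 29 lay above the 20th percentile of their array on at least 1 array and were tested. The other two, probe set 1457563_at of Egfr and probe set 1426075_at of Klb, lay below it on all 4 arrays, at 0.96 to 1.34 and at 0.94 to 1.49 on the log2 scale.

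RNA came from whole livers of 4-week-old mice on the C57BL/6 background, 2 Control and 2 Cnot3KO livers with 1 array for each. The labels call the Control mice wild type. In the study, controls carried either floxed Cnot3 without Cre or the Alb-Cre transgene with at most 1 floxed copy, and which of these the arrays hold is not stated. In Cnot3KO mice, both Cnot3 copies are floxed and Cre recombinase is driven by the albumin promoter, so the deletion is aimed at cells that express albumin or descend from such cells, mainly hepatocytes, while other liver cells keep the gene. The Cnot3 protein belongs to the Ccr4-Not complex, the main enzyme complex that trims mRNA poly(A) tails. Its representative probe set measured 5.99 and 6.04 on the log2 scale in Control and 5.15 and 5.30 in Cnot3KO livers and fell by 0.79. Nothing in the labels says whether the mice were litter mates. The p-values rest on the spread between these 4 livers, pooled in part over all tested probe sets.

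Receptor tyrosine kinases span the cell membrane. Binding of a ligand brings receptor chains together, the kinase domains phosphorylate each other, and docking proteins then start the Ras-MAP kinase and PI3 kinase relays. In liver, EGF receptor and Met carry the main mitogenic signals to hepatocytes, and the insulin receptor sets glucose and lipid metabolism. Fgfr4 with its partner β-klotho (Klb, which has no active kinase of its own) receives the ileal hormone FGF15 and represses bile acid synthesis. Pdgfra is known from mesenchymal cells, among them hepatic stellate cells.

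The start regions of 4 receptor genes are shown because their transcripts carried the differences that passed the test below: Egfr, Met and Fgfr4, which fell, and Fgfr2, of which a single probe set rose. Each line gives the 250 bases before the annotated gene start, 5′ to 3′ on the gene's strand, from RefSeq on build GRCm38.p6. Capitals mark GGGCGG or its reverse complement, the GC box.
Egfr: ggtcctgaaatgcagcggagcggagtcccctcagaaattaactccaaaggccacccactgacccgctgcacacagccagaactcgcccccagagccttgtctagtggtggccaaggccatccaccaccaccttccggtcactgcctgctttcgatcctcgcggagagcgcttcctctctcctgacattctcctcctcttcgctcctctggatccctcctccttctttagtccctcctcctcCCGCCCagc
Met: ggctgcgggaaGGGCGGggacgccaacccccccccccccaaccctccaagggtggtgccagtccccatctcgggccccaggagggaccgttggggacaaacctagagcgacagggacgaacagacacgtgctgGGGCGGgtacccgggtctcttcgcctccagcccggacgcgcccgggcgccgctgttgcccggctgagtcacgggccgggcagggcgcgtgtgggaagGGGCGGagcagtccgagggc
Fgfr4: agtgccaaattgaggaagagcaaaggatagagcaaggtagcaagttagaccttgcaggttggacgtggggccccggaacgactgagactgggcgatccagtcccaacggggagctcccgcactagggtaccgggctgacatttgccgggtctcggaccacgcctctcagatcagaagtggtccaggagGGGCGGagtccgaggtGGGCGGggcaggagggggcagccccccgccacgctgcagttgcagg
Fgfr2: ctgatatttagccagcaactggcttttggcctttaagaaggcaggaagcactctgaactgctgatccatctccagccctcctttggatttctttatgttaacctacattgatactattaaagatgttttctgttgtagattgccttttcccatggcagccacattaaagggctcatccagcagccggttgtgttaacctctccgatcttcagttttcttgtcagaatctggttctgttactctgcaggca

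The Egfr window lies at chr11:16751953-16752202 on the + strand, the Met window at chr6:17463707-17463956 on the + strand, the Fgfr4 window at chr13:55152568-55152817 on the + strand and the Fgfr2 window at chr7:130266809-130267058 on the - strand. Egfr held 1 GC box, whose first base was 9 bases before the start. Met held 3 GC boxes, beginning 239, 117 and 20 bases before the start, and Fgfr4 held 2, at 62 and 46 bases. Fgfr2 held none. The windows of these 4 genes had a GC content of 60.8%, 74.0%, 64.0% and 44.0% in the order given, beside a median of 52.4% over all 32851 windows of the same length. Windows were found for 7 of the 10 receptors, and the other three with a window, Erbb2, Klb and Pdgfra, held no GC box. In all windows together, 32.7% held a GC box. Other motifs were searched on both strands in the same way. The TATA box, read as TATAAA, stood in 12.4% of all windows and in none of the 7 receptor windows. The CCAAT box stood in 33.8% of all windows, and Erbb2 alone of the 7 held it. The STAT site, read as TTCNNNGAA, stood in 7.0% of all windows and in none of the 7. These motifs were chosen after the receptor values were known, and a match is a description of the sequence only.

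Transcripts of 3 of the 10 receptor genes fell in Cnot3KO livers and 0 rose, read from the representative probe set of each gene. The 3 were Egfr, Met and Fgfr4. With an array left out, Egfr and Met were called without Control replicate 2 and Egfr alone without each of the other arrays, and Egfr alone was called with the mean over the probe sets of each gene. Over all 16758 genes tested in the same way, 4.64% were called lower and 12.2% higher. The median difference of the 10 receptors was -0.10 on the log2 scale, and that of all genes was 0.00. Counted by probe set, 6 of the 29 tested receptor probe sets were called lower and 1 higher, beside 4.78% lower and 8.48% higher over all 38405 tested probe sets. The 6 lower calls are not independent, since 4 of them read Egfr. The 2 arrays of each group did not overlap in 14 receptor probe sets that were lower and 6 that were higher in Cnot3KO, where the background is 35.9% and 26.9% of all tested probe sets, and these counts say little beyond it. A call here means an adjusted p under 0.05 in limma, a linear model with moderated variances fitted over all tested probe sets, with the Benjamini-Hochberg adjustment. The representative probe set of a gene is the one with the highest mean over the 4 arrays. All values are log2 of the RMA intensity with n = 2 arrays per group, a difference is Cnot3KO minus Control, each value after ± is its standard error, and intervals are 95% intervals from limma. Levels of different probe sets depend on their probes and were not set against each other. In whole liver, fewer cells of a type and less RNA per cell cannot be told apart.

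**Figure D1:**
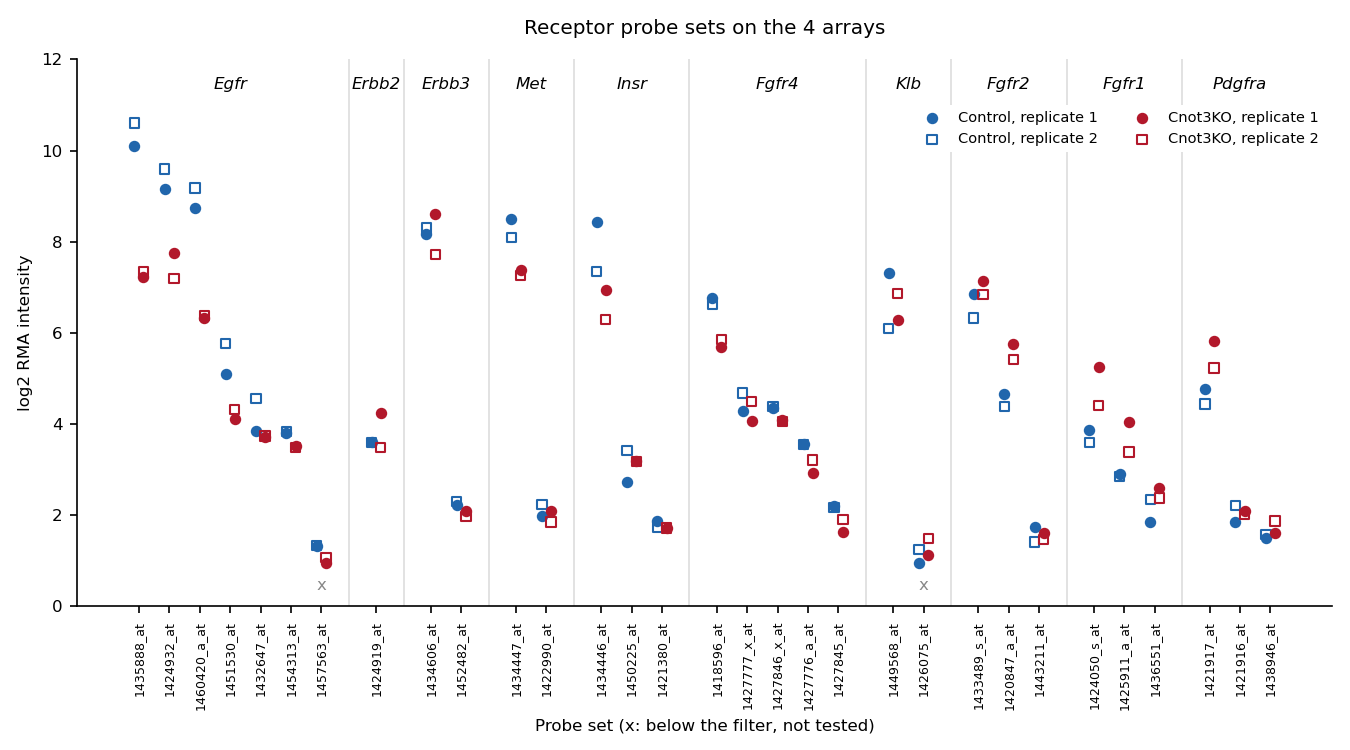
Log2 RMA intensity (vertical axis) of all 31 receptor probe sets (horizontal axis), grouped by gene, on each of the 4 arrays. Blue marks are Control and red marks Cnot3KO, filled circles are replicate 1 and open squares replicate 2, and an x marks the 2 probe sets below the filter. The Control marks of the 3 leftmost Egfr probe sets lie between 8.74 and 10.61, all above their Cnot3KO marks.

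Egfr had the largest difference of the 10 receptor genes. Its representative probe set, 1435888_at, measured 10.11 and 10.61 in Control and 7.23 and 7.34 in Cnot3KO livers. Both Cnot3KO arrays lay far below both Control arrays, and the gap between groups exceeded the gap between replicates. The transcript fell by 3.07 ± 0.22 on the log2 scale (interval -3.63 to -2.52, adjusted p = 0.00422 in limma), which is 8.42-fold. Other Egfr probe sets gave the same direction with smaller sizes. Probe set 1460420_a_at measured 8.74 and 9.18 in Control and 6.32 and 6.38 in Cnot3KO, a fall of 6.11-fold (adjusted p = 0.00495, limma). Probe set 1424932_at measured 9.16 and 9.60 against 7.75 and 7.19, a fall of 3.75-fold (adjusted p = 0.0148, limma), so here the Cnot3KO arrays stood further apart. Probe set 1451530_at, at 5.09 and 5.77 against 4.12 and 4.32, fell 2.31-fold (adjusted p = 0.0429, limma). For 2 more probe sets the difference did not pass the test, although their groups did not overlap. Probe set 1432647_at measured 3.85 and 4.56 in Control and 3.71 and 3.74 in Cnot3KO, a difference of -0.48 ± 0.27. Probe set 1454313_at measured 3.80 and 3.84 against 3.51 and 3.49, a difference of -0.32 ± 0.16. All 6 tested probe sets of Egfr were thus lower in both Cnot3KO livers, by 2.31-fold to 8.42-fold in the 4 that were called. Of all tested probe sets, 35.9% were lower without overlap, and the 6 are not independent, since they read 1 gene. With an array left out in turn, probe sets 1435888_at and 1460420_a_at were called in all 4 fits. Probe set 1424932_at was not called without Control replicate 1 (adjusted p = 0.0503 in limma) or Control replicate 2 (0.0543). Probe set 1451530_at was not called without Control replicate 2 (0.0764), Cnot3KO replicate 1 (0.155) or Cnot3KO replicate 2 (0.0952), nor with log2(value + 16) (0.119).

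The relatives of Egfr gave no call. ErbB3 binds neuregulins and signals through its partners since its own kinase is weak, and ErbB2 is the partner without a known ligand. Erbb3 measured 8.17 and 8.30 in Control and 8.60 and 7.72 in Cnot3KO livers at its representative probe set, 1434606_at. The Cnot3KO arrays fell on either side of both Control arrays, and the difference was -0.08 ± 0.31 with an interval from -0.86 to 0.71. Its direction turned when Cnot3KO replicate 2 was left out, where the difference was 0.36. A second Erbb3 probe set, 1452482_at, measured 2.22 and 2.30 against 2.10 and 1.97, and was not called. Erbb2 measured 3.60 and 3.59 in Control and 4.25 and 3.49 in Cnot3KO, a difference of 0.28 ± 0.28 (interval -0.42 to 0.98). Cnot3KO replicate 1 alone lay above Control, and without it the difference was -0.10. The intervals leave room for a difference as high as 0.98 in Erbb2 and as low as -0.86 in Erbb3, so these data do not show that the genes were unchanged. Whether the Egfr difference exceeds that of its relatives was not tested.

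Met, the receptor for hepatocyte growth factor, was lower in Cnot3KO livers. Probe set 1434447_at measured 8.51 and 8.10 in Control and 7.37 and 7.26 in Cnot3KO. The groups did not overlap, and the difference of -0.99 ± 0.20 (interval -1.50 to -0.48) was a 1.99-fold fall with an adjusted p of 0.0366 in limma. The other Met probe set, 1422990_at, measured 1.99 and 2.24 against 2.10 and 1.85, where the groups overlapped. The Met difference no longer passed without Control replicate 1 (adjusted p = 0.0969 in limma), without Cnot3KO replicate 1 (0.123) or without Cnot3KO replicate 2 (0.145), with differences of -0.78, -1.05 and -0.93. It was also lost when both probe sets were averaged, at -0.56 with an adjusted p of 0.0624 in limma, and with log2(value + 16), at -0.92 with 0.0660.

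Insr, the receptor that carries the insulin signal, differed on average but did not pass the test. Its representative probe set, 1434446_at, measured 8.44 and 7.35 in Control and 6.95 and 6.30 in Cnot3KO livers. Both Cnot3KO arrays lay below both Control arrays, but the replicates of each group stood well apart from each other. The difference was -1.27 ± 0.42 (interval -2.32 to -0.22, adjusted p = 0.111 in limma). It moved to -0.72 without Control replicate 1 and to -1.82 without Control replicate 2, and was not called in any of the 4 fits with an array left out. The other Insr probe sets, 1421380_at and 1450225_at, gave -0.09 ± 0.16 and 0.12 ± 0.26, with all values between 1.72 and 3.42.

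Fgfr4, the FGF receptor through which hepatocytes sense FGF15, was lower in Cnot3KO livers, and its co-receptor Klb gave no call. Fgfr4 measured 6.76 and 6.62 in Control and 5.68 and 5.86 in Cnot3KO at its representative probe set, 1418596_at. Replicates were close together in both groups, and the transcript fell 1.89-fold, a difference of -0.92 ± 0.17 (interval -1.35 to -0.49, adjusted p = 0.0285 in limma). The other 4 Fgfr4 probe sets were also lower on average, with differences from -0.50 to -0.21, and were not called. Of them, 1427777_x_at overlapped between the groups and the other three did not. The Fgfr4 call was lost in each of the 4 fits that left out an array: without Control replicate 1 the adjusted p was 0.0937, without Control replicate 2 it was 0.0616, without Cnot3KO replicate 1 it was 0.161 and without Cnot3KO replicate 2 it was 0.0894 in limma. The differences in these fits ran from -1.01 to -0.82, and the mean over all 5 probe sets gave -0.47 with an adjusted p of 0.102.

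Klb measured 7.31 and 6.10 in Control and 6.28 and 6.87 in Cnot3KO livers at probe set 1449568_at. The 2 Control arrays lay outside the 2 Cnot3KO arrays on either side, and the difference was -0.13 ± 0.44. Its interval, from -1.23 to 0.98, holds the difference measured for Fgfr4 as well as no difference at all. Leaving out Control replicate 1 turned the sign (0.48), as did leaving out Cnot3KO replicate 1 (0.17).

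The representative probe sets of Fgfr1, Fgfr2 and Pdgfra were higher on average in Cnot3KO livers, and among their 9 probe sets a single probe set of Fgfr2 passed the test. That probe set, 1420847_a_at, measured 4.65 and 4.39 in Control and 5.75 and 5.42 in Cnot3KO livers. The groups did not overlap, and the difference of 1.06 ± 0.20 was a 2.08-fold rise (interval 0.55 to 1.57, adjusted p = 0.0297 in limma). This call was lost in each of the 4 fits that left out an array, with adjusted p of 0.0729 without Control replicate 1, 0.0869 without Control replicate 2, 0.146 without Cnot3KO replicate 1 and 0.0603 without Cnot3KO replicate 2, and with log2(value + 16) (0.0601). The representative Fgfr2 probe set, 1433489_s_at, measured 6.86 and 6.33 against 7.14 and 6.84. Here Cnot3KO replicate 2 lay below Control replicate 1, and the difference was 0.39 ± 0.24 with an adjusted p of 0.324. It was 0.65 when Control replicate 1 was left out, 0.13 when Control replicate 2 was, and 0.24 when Cnot3KO replicate 1 was. The third Fgfr2 probe set, 1443211_at, gave -0.03 ± 0.19. The intervals of 1420847_a_at and 1433489_s_at overlap, whether the probe sets differ was not tested, and the table does not say which exons they read. Fgfr2 encodes a receptor whose splice forms bind different FGFs in epithelium and mesenchyme.

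Fgfr1 measured 3.88 and 3.60 in Control and 5.26 and 4.40 in Cnot3KO livers at its representative probe set, 1424050_s_at. Both Cnot3KO arrays were above both Control arrays, with replicate 1 the higher, and the difference was 1.09 ± 0.32 (interval 0.29 to 1.89, adjusted p = 0.0841 in limma). Probe set 1425911_a_at gave 0.84 ± 0.26 and probe set 1436551_at gave 0.40 ± 0.23, with no overlap between groups and no call. With Cnot3KO replicate 2 left out the difference was 1.52 and passed the test (adjusted p = 0.0348), and with Cnot3KO replicate 1 left out it was 0.66 (0.273).

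Pdgfra measured 4.76 and 4.44 in Control and 5.83 and 5.23 in Cnot3KO livers at probe set 1421917_at. Both Cnot3KO arrays lay above Control, and the difference of 0.93 ± 0.26 (interval 0.28 to 1.58, adjusted p = 0.0742 in limma) was not called. The other Pdgfra probe sets, 1421916_at and 1438946_at, gave 0.02 and 0.21.

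**Figure D2:**
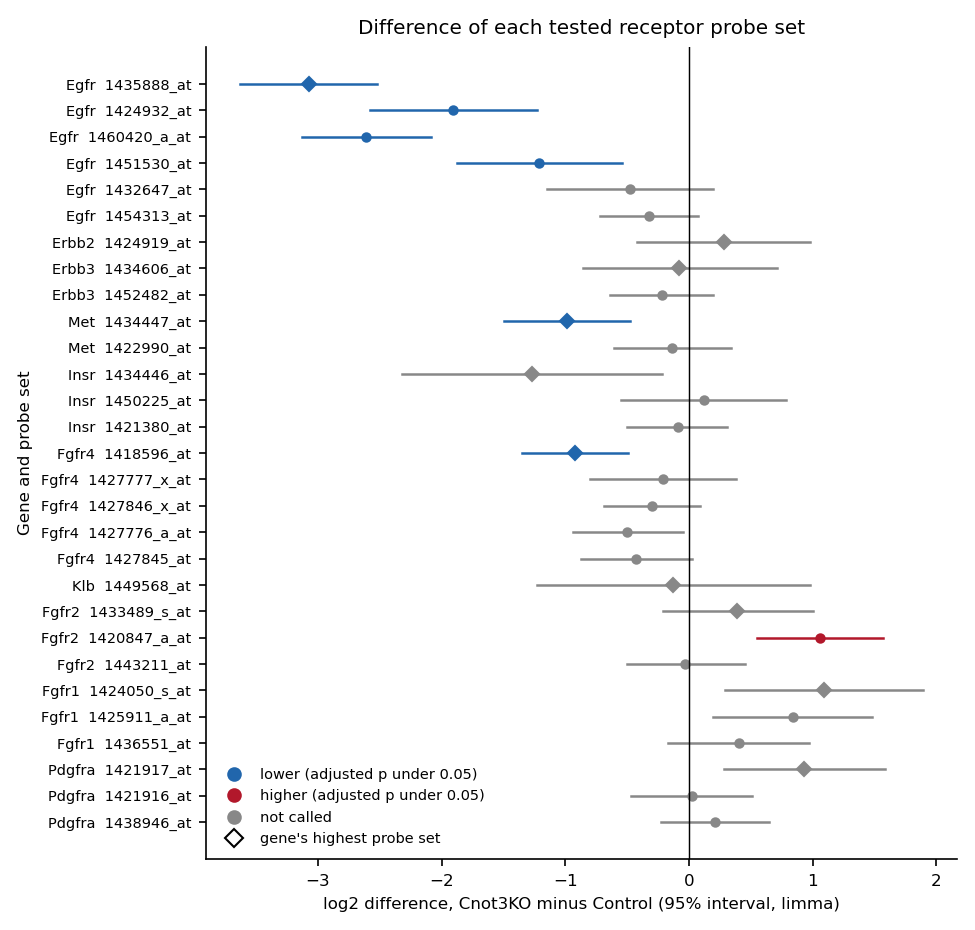
Log2 difference, Cnot3KO minus Control (horizontal axis), of each of the 29 tested receptor probe sets (vertical axis), with 95% intervals from limma as lines. Diamonds are the representative probe set of a gene, blue marks were called lower, red called higher and grey not called. The 4 blue Egfr marks run from -3.07 to -1.21, and the intervals of Klb and Erbb3 cross 0.

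Markers of liver cell types were read beside the receptors. Of 11 measured hepatocyte genes, among them Alb and Hnf4a, 0 were called, at a median difference of -0.02. Over all genes, 12.2% were called higher and 4.64% lower. In limma at an unadjusted p under 0.05, 5550 probe sets of all kinds were lower and 6346 higher. The summed linear level of the hepatocyte list was 83688 and 84391 in Control and 82252 and 84487 in Cnot3KO livers, so its range in Cnot3KO enclosed that in Control. This sum rests mostly on the brightest genes of the list. Alb, Ttr, Apoc3 and Cps1 overlapped between the groups. Tat at -0.61, Serpina1c at -0.57, F2 at -0.55 and Hnf4a at -0.25 had lower values in both Cnot3KO livers, each without a call. Apoa1 at 0.40, Ahsg at 0.30 and Fgb at 0.28 had higher values in both Cnot3KO livers, also without a call. Egfr, Met and Fgfr4 were lower on the same 2 arrays.

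The marker counts that follow stand beside 12.2% of all genes called higher and 4.64% called lower. Of 12 measured genes of stellate cells and fibroblasts, 5 rose and 0 fell, with a median of 0.40. The summed level of these 12 was 3190 and 2535 in Control and 6340 and 4822 in Cnot3KO. The risers were Lum by 2.40, Col1a1 by 1.90, Col3a1 by 1.73, Dcn by 1.09 and Pdgfrb by 0.96, matrix genes and the receptor of PDGF B chains. Lrat, which makes the retinyl esters that quiescent stellate cells store, differed by -0.19 ± 0.20 and was not called. Hand2 at 0.58, Reln at 0.22, Colec11 at 0.18, Des at 0.07, Ngfr at -0.09 and Ecm1 at -0.53 were not called either. The rise of the sum rests mostly on the matrix genes Col3a1, Dcn and Lum. On the linear scale Col3a1 measured 677.4 and 488.9 in Control and 2157.9 and 1691.4 in Cnot3KO livers. Of 9 measured genes of cholangiocytes and progenitors, 6 rose and 0 fell, with a median of 2.79 and a summed level of 222 and 146 against 1399 and 967. Epcam rose by 3.69, Cldn7 by 4.38 and Krt19 by 1.45. Krt7 at 1.02, Cd24a at 1.35 and Onecut1 at -0.68 were not called, and Cd24a and Onecut1 overlapped between the groups. Second probe sets of Dcn (0.42), Pdgfrb (0.23) and Epcam (0.24) were not called. Of 10 measured macrophage genes 3 rose, with a median of 0.87 and a summed level of 2057 and 2041 against 3352 and 3986. Of 10 measured endothelial genes 0 were called, with a median of 0.01 and a summed level of 1058 and 1250 against 1264 and 1136. Pdgfrb, Kdr and Csf1r stand in a marker list and in a receptor list at once. The representative probe sets of Fgfr1 and Pdgfra and probe set 1420847_a_at of Fgfr2 were higher on the 2 arrays where the stellate cell and cholangiocyte sums were higher, and the part of these cells in them was not tested. The representative probe set of Fgfr2 overlapped between the groups, although these sums did not.

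Sex was not given in the labels. The Y-linked transcripts Eif2s3y, Kdm5d and Uty measured 7.34 to 7.90, 4.95 to 5.18 and 4.50 to 5.07 over the 4 arrays. Xist measured 1.99 to 2.33, and 0 of these 4 genes were called. On these transcripts all 4 livers read as male. Of 8 measured hepatocyte genes with sex-biased expression, 6 fell and 1, Cyp17a1, rose, with a median of -4.24. Over all genes, 4.64% were called lower and 12.2% higher. The 6 were Hsd3b5, Slco1a1, Mup3, Elovl3, Cyp2d9 and Cyp4a12a, and Cyp2b9 was not called. The list was not split by the direction of the sex bias, so its count and median only describe the pooled list. Hsd3b5, a male-biased steroid dehydrogenase, measured 10.44 and 10.82 in Control and 1.52 and 2.78 in Cnot3KO. Egfr was lower on the same arrays, and the part of sex-biased expression in its difference was not tested.

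The pathway around the receptors was read from 6 lists, in which 106 genes were measured, 14 rose and 5 fell. The 5 include Pdk1, a listed gene outside the pathway, as described below. These counts are close to the shares of all genes called, 12.2% higher and 4.64% lower, and are no result about the pathway as a whole. With an array left out these counts were 3 and 2 without Control replicate 1, 7 and 5 without Control replicate 2, 7 and 3 without Cnot3KO replicate 1, and 12 and 2 without Cnot3KO replicate 2. By list, the counts higher in these fits ran from 1 to 2 for ligands, 1 to 2 for other receptor tyrosine kinases, 0 to 2 for adaptors, 1 to 5 for feedback inhibitors and 0 to 3 for proteases. Of 19 measured ligands, 2 rose and 1 fell, near the same 12.2% and 4.64% of all genes, with a median of 0.10. Btc encodes betacellulin, a ligand of the EGF receptor. It measured 3.02 and 2.85 in Control and 6.13 and 5.52 in Cnot3KO livers. Both Cnot3KO arrays stood far above Control, a rise of 2.89 ± 0.25 (adjusted p = 0.00583 in limma), and the other Btc probe set rose by 1.50. Fgf1, an FGF that binds all FGF receptors, measured 7.88 and 8.05 against 5.42 and 5.39. It fell by 2.56 ± 0.16 (adjusted p = 0.00422), with replicates close together, and its 3 probe sets were all called lower. Pdgfa, a ligand of Pdgfra, measured 5.04 and 5.02 against 6.55 and 6.22 and rose by 1.35 ± 0.19 (adjusted p = 0.0142), and its other probe set rose by 1.05.

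Ligands that pair with the receptors that fell were mostly not called. Hgf, the ligand of Met, differed by 0.24 ± 0.22 at its representative probe set. Its other probe sets gave 0.84 ± 0.23 (adjusted p = 0.0728 in limma) and 0.53 ± 0.18 (0.117), with no overlap between groups and no call. Tgfa and Egf, ligands of the EGF receptor, differed by -0.11 ± 0.30 and -0.29 ± 0.19. Hbegf, another EGF receptor ligand, differed by 0.43 ± 0.22 at its representative probe set, while a second probe set, at 2.52 and 2.91 against 3.99 and 4.58, rose by 1.57. Fgf15 and Fgf21, which signal with β-klotho, differed by -0.10 ± 0.20 and -0.63 ± 0.68. Fgf21 measured 5.03 and 3.03 in the 2 Control livers, so its replicates alone spanned more than the difference between groups.

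Of 21 other measured receptor tyrosine kinases, 3 rose and 0 fell, near the 12.2% of all genes called higher, with a median of 0.01. Ddr1, a collagen receptor of epithelial cells, measured 4.55 and 4.10 in Control against 7.15 and 6.10 in Cnot3KO livers, a rise of 2.30 ± 0.38 (adjusted p = 0.0214 in limma). Of its 8 probe sets 3 were called higher and the others were not called. Axl, a receptor for Gas6, rose by 1.31 ± 0.17, and Pdgfrb by 0.96 ± 0.21. A second Pdgfrb probe set, at 0.23 ± 0.16, was not called. Fgfr3 measured 6.70 and 6.21 against 5.65 and 4.71, with no overlap between groups and an adjusted p of 0.0770.

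Of 14 measured adaptors and docking proteins, 3 rose and 0 fell, beside 12.2% and 4.64% of all genes, with a median of -0.02. After another quantile normalization 1 was called higher and 1 lower, and with the mean of probe sets 1 was higher. They were Gab2 by 1.61 ± 0.37, Nck1 by 1.23 ± 0.26 and Grb2 by 1.02 ± 0.17. Grb2 couples receptors to Ras through Sos, and its second probe set gave -0.37 ± 0.17, the opposite sign, without a call. The other probe sets of Gab2 and Nck1 were not called either. Irs1 and Irs2, the main docking proteins of the insulin receptor, differed by -0.25 ± 0.21 and 0.03 ± 0.17.

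Of 25 measured feedback inhibitors and phosphatases, 3 rose and 0 fell, near the 12.2% of all genes called higher, with a median of 0.28. Grb10, an imprinted gene whose protein inhibits the insulin receptor, measured 4.94 and 5.21 in Control and 8.73 and 7.31 in Cnot3KO livers. The Cnot3KO arrays differed by more than a unit from each other and still lay well above Control, a rise of 2.94 ± 0.47 (adjusted p = 0.0193 in limma). The other Grb10 probe sets, 1430164_a_at at 1.26 ± 0.37 and 1425457_a_at at 0.02 ± 0.19, were not called. Cblc, a ubiquitin ligase of the Cbl family, rose by 1.81 ± 0.35, and Dusp4, a MAP kinase phosphatase, by 1.66 ± 0.27. Errfi1, an inhibitor of the EGF receptor that EGF itself induces, measured 11.80 and 11.70 against 11.16 and 11.12, a difference of -0.61 ± 0.16 that missed the threshold (adjusted p = 0.0653).

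Of 16 measured genes listed for the MAP kinase and PI3 kinase relays, 0 rose and 3 fell, with a median of -0.11. Over all genes, 12.2% were called higher and 4.64% lower. The count lower was 1 in the fits without Control replicate 1, Cnot3KO replicate 1 or Cnot3KO replicate 2. Braf, a kinase below Ras, fell by 0.99 ± 0.19, and Akt2, the Akt form of insulin action, by 0.78 ± 0.17. A second Braf probe set fell by 0.80, and the other Braf probe sets were not called, among them 1425693_at at 0.30. The other Akt2 probe sets, at -0.55 and -0.75, were not called. Pdk1, listed here, fell by 1.73 ± 0.18. This symbol stands for pyruvate dehydrogenase kinase, not for the kinase that phosphorylates Akt, whose symbol is Pdpk1. Pdk1 is thus outside the relays, although the counts and median of the list include it. The called relay genes were Braf and Akt2.

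Of 11 measured genes of receptor processing and proteases, 3 rose and 1 fell, beside 12.2% and 4.64% of all genes, with a median of 0.26. None of the 11 was called without Control replicate 1, and with log2(value + 16) 0 rose. Plat, a plasminogen activator, measured 2.74 and 2.44 in Control and 8.58 and 6.00 in Cnot3KO livers, a rise of 4.70 ± 0.81 (adjusted p = 0.0232 in limma). A second Plat probe set, 1458553_at, gave 0.18 ± 0.19 and was not called. St14 encodes matriptase, which can cleave pro-HGF, and Spint1 its inhibitor. St14 measured 2.47 and 2.85 against 7.37 and 6.14 and rose by 4.10 ± 0.42, and Spint1 measured 3.60 and 4.01 against 7.37 and 6.13 and rose by 2.94 ± 0.43. In both genes Cnot3KO replicate 1 was the higher of its group. The summed cholangiocyte, stellate cell and endothelial lists had the same order, and the hepatocyte and macrophage lists the reverse. With 2 arrays this order does not tell cell types apart, and the part of any of them was not tested. Furin, a convertase that cleaves the precursors of Met and the insulin receptor, fell by 1.02 ± 0.18. Hpn, a hepatocyte protease that can also cleave pro-HGF, measured 10.20 and 9.94 against 10.09 and 10.04.

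**Figure D3:**
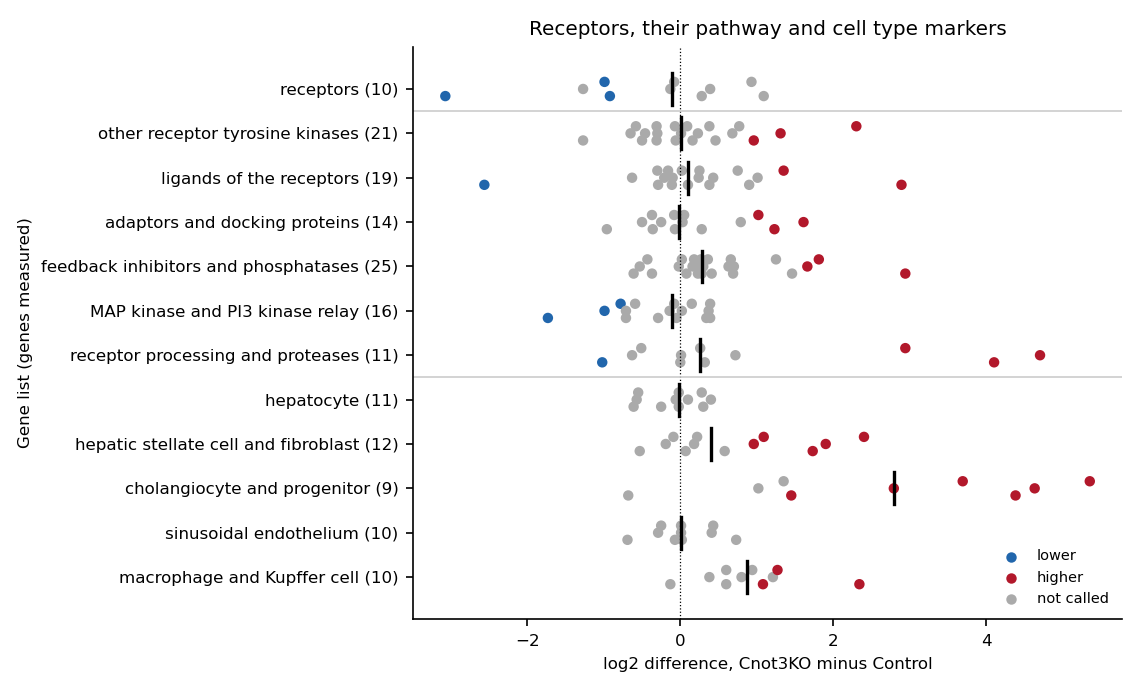
Log2 difference, Cnot3KO minus Control (horizontal axis), of the representative probe set of each measured gene in the receptor list, 6 pathway lists and 5 cell type marker lists (vertical axis). Black bars are medians, blue points were called lower, red called higher and grey not called. The receptor median lies at -0.10 and the cholangiocyte and progenitor median at 2.79.

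The receptor differences were recomputed under 17 alternatives of filter, scaling, test and arrays. Egfr was lower in all 17, from -3.33 to -1.60, and was called in 16, the exception being the methods' t-test after adjustment (p = 0.176 over 38405 probe sets, n = 2 arrays per group, not an exact test). Met and Fgfr4 were lower in all 17 and were called in 11 each, from -1.20 to -0.56 and from -1.08 to -0.47. Insr was lower in all 17, from -1.82 to -0.41, and was called in 1. Fgfr1, Fgfr2 and Pdgfra were higher in all 17 and were called in 1 each. Klb, Erbb2 and Erbb3 were called in 0 and changed sign in 2, 1 and 1 of them.

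**Figure D4:**
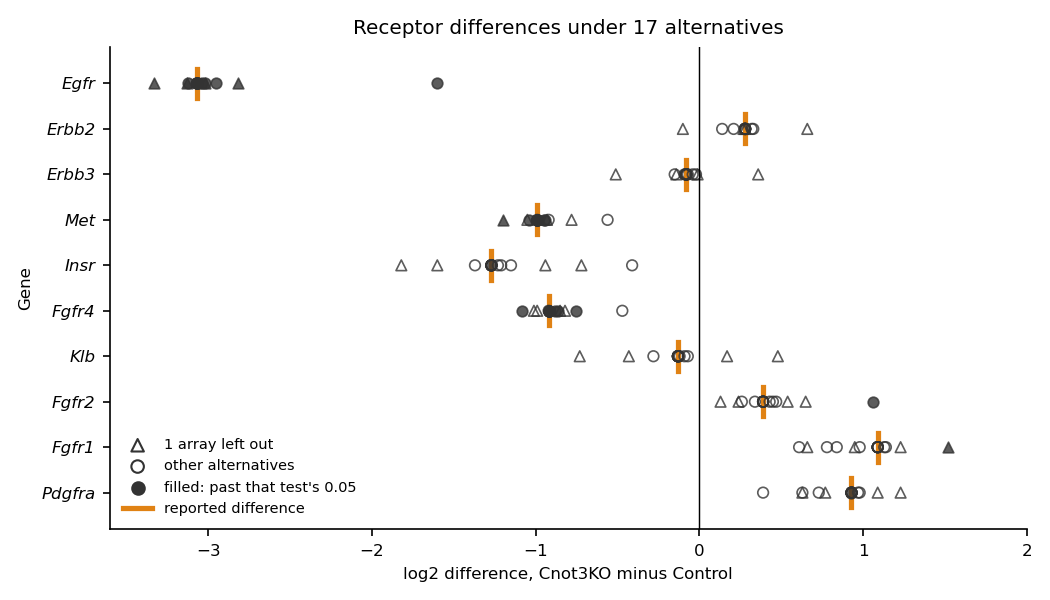
Log2 difference, Cnot3KO minus Control (horizontal axis), of the 10 receptor genes (vertical axis) under the 17 alternatives. Triangles are fits with 1 array left out, circles the others, filled marks passed the threshold of their own test, and orange bars are the reported differences. All marks of Egfr, Met, Insr and Fgfr4 lie below 0, and those of Klb, Erbb2 and Erbb3 lie on both sides.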

How the data were processed

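Livers of 2 Control and 2 Cnot3KO mice were measured on 1-colour Affymetrix 3′ arrays. The authors summarised and normalized the probe intensities with Robust Multi-array Average (RMA; version not given in the sources used here), and the deposited values are linear intensities. They were turned to log2 with no added constant. Probe sets were kept if any of the 4 arrays had them above its own 20th percentile, after the study's lower cut-off. Groups were compared with lmFit and eBayes (limma 3.58.1, R 4.3.3), 2-sided, on 5.40 degrees of freedom, 3.40 of them from the prior, with Benjamini-Hochberg adjustment over 38405 probe sets. The median SE was 0.19. Pearson's r over probe sets was 0.981 in Control, 0.989 in Cnot3KO and 0.937 to 0.948 between groups, and array medians were 3.09 to 3.14. The number of arrays limits the precision. The fit was also run on data simulated from its own variance prior with independent noise. Those data follow the model by construction, so that run does not check the model on these livers. Figures were drawn with matplotlib 3.10.9 (Python 3.11.15).

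Genes were named by platform annotation: 34945 probe sets name 1 gene, 932 several and 9160 none, and only the first kind was used. Genes without a kept probe set are not analysed here. Members, lists and tests were chosen with earlier results of these data known. Named were all receptors, Cnot3, up to 4 called genes of each pathway list by size, and markers beside a receptor result. Fgfr3 and the uncalled ligands, adaptors, inhibitors and proteases in the text were named after their values were seen. Alternatives covered the filter, scaling, pseudocount, probe sets, variance prior, the replicate block, the methods' t-test and each array left out.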

Additional observations from a re-analysis of the deposited data

How the results depend on the processing

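Adjusting the methods' t-test by Benjamini-Hochberg left 0 receptor genes or probe sets and 0 pathway genes called in either direction, with adjusted p of 0.176 for Egfr, 0.237 for Met and 0.191 for Fgfr4, and over all probe sets 0 higher and 1 lower. Unadjusted it called 3 receptor genes lower, 12 pathway genes lower and 3977 of all probe sets lower. Quantile normalization again called 8 pathway genes lower. With log2(value + 16), 5 pathway genes and 0 receptor probe sets were higher, 1213 of all probe sets were lower, and Met was at -0.92 (adjusted p = 0.0660, limma). The mean of probe sets left 1 receptor gene lower, with Met at -0.56 and Fgfr4 at -0.47. With the _x_at and _s_at probe sets removed, 1 receptor gene, Fgfr2, was higher at 1.06 (adjusted p = 0.0299). Centring on array medians or ribosomal protein genes shifted all differences by 0.04 or 0.05.

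Replicate numbers have no stated meaning. With the replicate number as a block, 1 receptor gene and 2 receptor probe sets were called higher and 4 receptor genes lower, Insr at -1.27 (adjusted p = 0.0341, limma) and Pdgfra at 0.93 (0.0453). The replicate differences of the groups correlated at 0.23 over probe sets, which from 2 pairs does not show pairing.

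Leaving out each array in turn gave 1194 to 1973 probe sets higher and 508 to 1394 lower over all, receptor genes higher 0 to 1 and lower 1 to 2, receptor probe sets higher 0 to 1 and lower 3 in each fit, and pathway genes higher 3 to 12 and lower 2 to 5. Differences ran from -1.20 to -0.78 for Met, -1.01 to -0.82 for Fgfr4, -1.82 to -0.72 for Insr, 0.13 to 0.65 for Fgfr2, 0.63 to 1.23 for Pdgfra and 0.66 to 1.52 for Fgfr1. Signs turned for Klb (0.48 without Control replicate 1, 0.17 without Cnot3KO replicate 1), Erbb2 (-0.10 without Cnot3KO replicate 1) and Erbb3 (0.36 without Cnot3KO replicate 2), whose leave-one-out ranges were -0.73 to 0.48, -0.10 to 0.66 and -0.51 to 0.36. An array left alone in its group was assumed to vary like the other group. No background or detection values were used, so low probe sets may hold little signal.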
